A study of Mus musculus with 6 samples.

Results

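YTHDC1 LACE-seq peaks were examined in 7 genes that encode giant linker proteins of the cytoskeleton and the nuclear envelope, out of 22380 annotated protein-coding genes. The 7 genes, Dst, Macf1, Plec, Ahnak, Utrn, Syne1 and Syne2, were selected on earlier peak counts from these same libraries, so their numbers of peaks are a description and carry no test. The members were then all the peaks inside their intervals in mm9 (GENCODE vM1) whose listed strand is not that of the gene, because reads from a gene's own RNA appear in these lists with the opposite sign. Such peaks are called RNA-strand peaks below. Each library listed between 6 and 593 of them in the 7 genes together, out of 7925 to 71992 peaks in all.

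LACE-seq crosslinks a protein to RNA with UV light, precipitates it with an antibody, here against YTHDC1, and reads the nucleotide at which reverse transcription stopped. The cells were ASC-48 hr, which are muscle satellite cells activated by 48 hr of culture, and C2C12, an established mouse myoblast line. The labels give all as WT, with no treatment other than the UV crosslink and no control group. The study sorted its satellite cells from hindlimb muscle by a GFP or EYFP reporter that depends on Pax7, and which of its mouse strains gave these libraries is not given in the sources used here. ASC-48 hr had 4 libraries, with biological replicates B1 and B2 each prepared as T1 and T2, and C2C12 had 2 replicates made from more cells. C2C12 is a single line that has been kept in culture, and satellite cells change during activation, so that neither group stands for resting muscle.

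YTHDC1 is the nuclear reader of N6-methyladenosine (m6A), a mark that is often found in the long internal exons and the 3′UTRs of mRNAs. Plectin, dystonin and MACF1 are plakins, very large proteins that bind actin filaments, microtubules or intermediate filaments and tie them to each other and to adhesion sites. Utrophin is the close relative of dystrophin that links actin to the membrane complex of muscle, nesprin-1 and nesprin-2 (Syne1 and Syne2) link the nuclear envelope to the cytoskeleton, and AHNAK is a giant membrane-associated scaffold built of many similar repeats.

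Several features of the libraries bear on these values. Peaks were called in each library separately in bins of 20 nt, with no total number of reads, and the lowest number of reads listed per bin ranged from 4 (ASC B2 T2) to 6 (both C2C12 replicates). A library with few peaks in a gene may hold less of its RNA or fewer reads, and these cannot be told apart. ASC B2 T2 stood apart with 19448 peaks and a median of 4 reads per bin, and the share of peaks in the 7 genes was 0.404% and 0.483% in the B2 libraries against 0.0739% and 0.130% in the B1 libraries. The mRNA level of the genes was not measured in these libraries, and the sources differ on the C2C12 replicates: the labels number them as biological replicates and the study's text calls them technical, so their spread may be technical only. ASC-48 hr and C2C12 are therefore given side by side and not compared as conditions. A read could be placed at up to 10 positions of the genome, so that a repeated sequence can show the same reads more than once.

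In C2C12, the peaks of the 7 genes were concentrated in Ahnak, Plec and Dst, were fewer in Macf1 and Utrn, and were nearly absent from Syne1 and Syne2. Ahnak held 212 and 230 RNA-strand peaks in replicates 1 and 2, and Plec held 155 and 163. Dst followed with 137 and 134, Macf1 with 44 and 41, and Utrn with 23 in each replicate. The numbers of the 2 replicates lay close together in each of these genes. Syne2 had 4 and 1, and Syne1 had 0 and 1. Of the 575 peaks in replicate 1, 374 (65.0%, 95% Clopper-Pearson interval 61.0 to 68.9%) were met by a peak of replicate 2 with the same sign and an overlap of 1 nt or more, beside 48.05% (47.6 to 48.4%) of all 60540 peaks of that library. The share varied among the genes, from 80.2% (74.2 to 85.3%) in Ahnak, 69.0% (61.1 to 76.2%) in Plec and 53.3% (44.6 to 61.9%) in Dst to 38.6% (24.4 to 54.5%) in Macf1 and 30.4% (13.2 to 52.9%) in Utrn, the last 2 of them below the share of the whole library but with intervals that include it. These 374 are the C2C12 shared peaks, and the intervals cover counting error only. Their log2 reads per bin in the replicates were correlated with r = 0.59 over the 374 peaks, which share genes and are not independent.

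**Figure D1:**
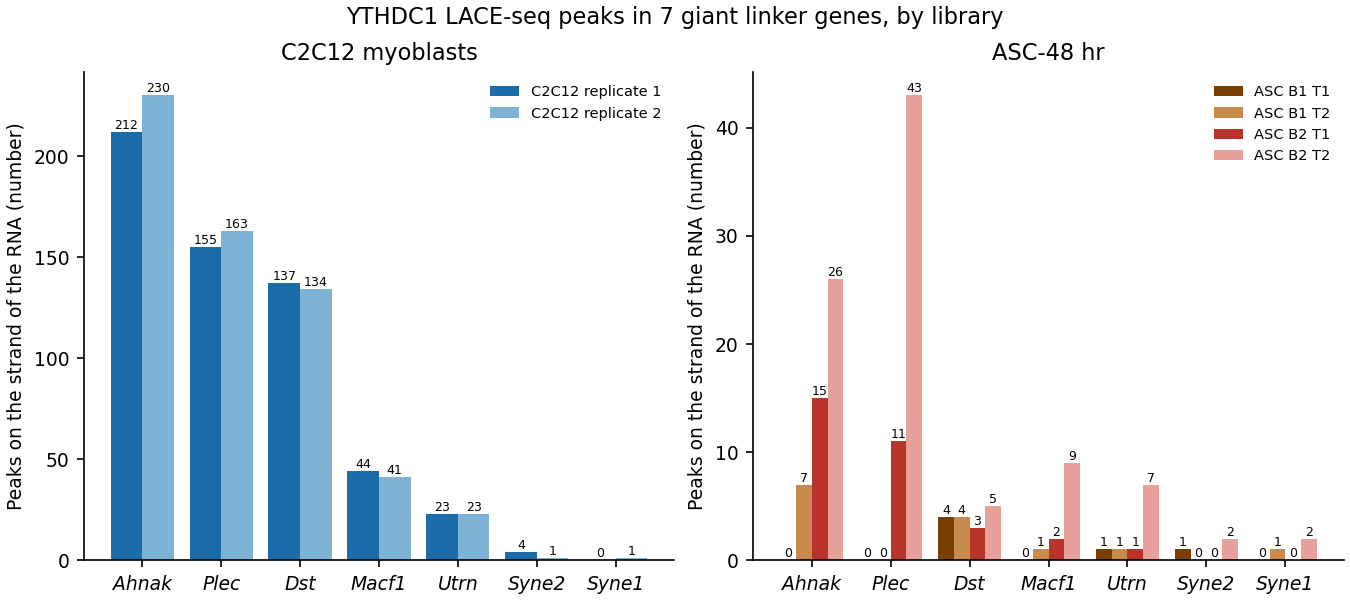
Number of RNA-strand peaks (vertical axis) in each of the 7 genes, with a bar for every C2C12 library (left) and every ASC-48 hr library (right); the scales of the panels differ. The C2C12 replicates stand at like heights from Ahnak (212 and 230) down to Syne1 (0 and 1), whereas the ASC libraries range from 0 to 26 in Ahnak and from 0 to 43 in Plec.

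Of the 7 genes, 5 held at least 1 C2C12 shared peak, against 21.9% of all protein-coding genes, a share given as background because the genes were chosen on their peaks. Ahnak held 170 shared peaks (95% Poisson interval 145 to 198) and ranked 2nd among the 22380 genes. Plec held 107 (87.7 to 129) and ranked 4th, and Dst held 73 (57.2 to 91.8) and ranked 8th. The order of Ahnak and Plec turns when sequences found more than once in the genome are left out, with 88 single-copy peaks in Ahnak, 102 in Plec and 71 in Dst. Because a read may be listed at several of the repeated positions in Ahnak, its peaks are not independent, and the intervals given for its counts, densities and shares are too narrow. Macf1 held 17 (9.90 to 27.2, rank 161) and Utrn 7 (2.81 to 14.4, rank 628). Syne1 and Syne2 held 0, which allows up to 3.69 peaks each. Ahnak, Plec and Dst together accounted for 350 of the 374 peaks (93.6%).

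By part of the gene, 304 of the 374 shared peaks (81.3%, 77.0 to 85.1%) overlapped a coding exon, 22 a 3′UTR, 5 a 5′UTR and 43 an intron only. Coding exons make up 6.48% of the 2194821 nt of the 7 intervals. As background, the whole series had 29087 C2C12 shared peaks. In the other protein-coding genes with a shared peak, 2654 lay in coding exons of at least 1000 nt and 5348 in shorter ones. Other genes ranked 12th or higher by shared peaks varied. Coding exons held 81 of 88 peaks in Lrp1, 78 of 94 in Fn1, 74 of 83 in Hspg2 and 55 of 55 in Ahnak2. The numbers were 29 of 67 in Myh9 and 13 of 222 in Ext1. Runx1 had 6 of 60, Gm20388 1 of 109 and 2010111I01Rik 0 of 64. Per length, the 7 genes had 2.14 shared peaks per kb of coding exon, 1.89 per kb of 3′UTR and 0.0212 per kb of intron. The division differed among the genes: coding exons took 151 of 170 peaks in Ahnak, 92 of 107 in Plec and 53 of 73 in Dst, but 7 of 17 in Macf1 and 1 of 7 in Utrn. Introns held 18 of the Dst peaks, 8 of those in Macf1 and 6 of those in Utrn. Because exons and introns of different genes come from RNAs of unknown level, the densities compare parts within a gene more directly than they compare genes.

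**Figure D2:**
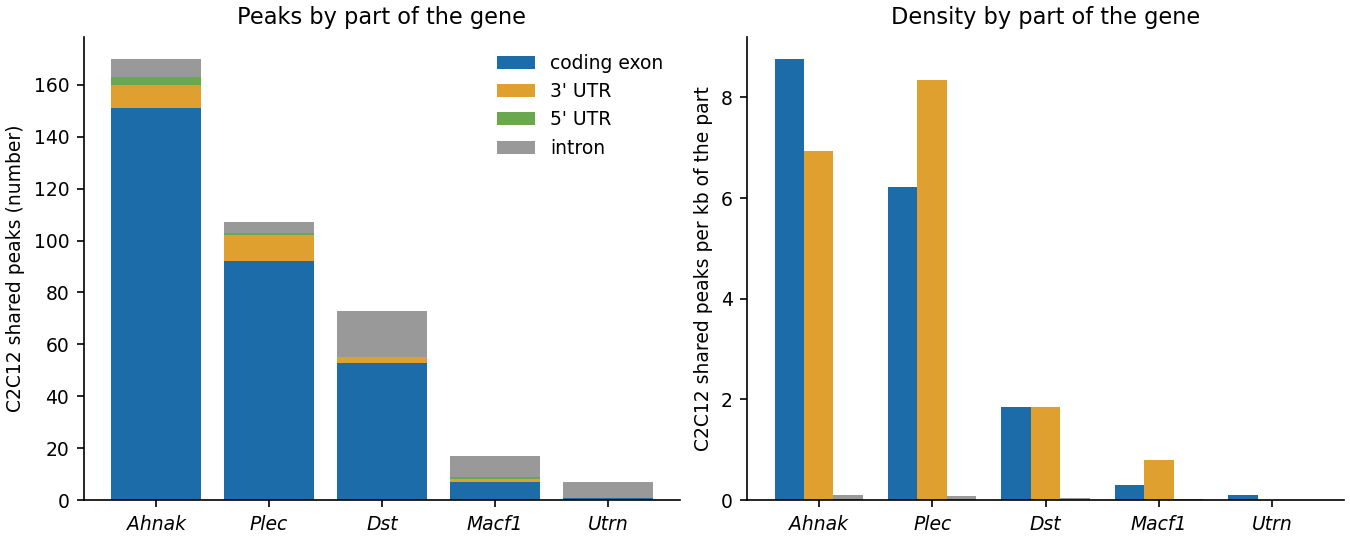
C2C12 shared peaks of the 5 genes that have any, as numbers stacked by part of the gene (left) and as peaks per kb of coding exon, 3′UTR and intron (right, the same colours). Coding exons dominate the counts in Ahnak, Plec and Dst, and intron bars stay below 0.11 per kb.

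Ahnak, the scaffold that works with S100A10 and annexin A2 at the cell membrane, lies on the plus strand of chr19:9063750-9151409 and has 7 coding exons. A single exon of 16623 nt, the third (chr19:9076189-9092811), makes up 96.5% of its coding length and held 149 of its 151 coding exon peaks. Replicates 1 and 2 listed 182 and 192 peaks in it, or 10.9 and 11.6 per kb, and the shared peaks came to 8.96 per kb (7.58 to 10.5) and covered 30.2% of the exon. They were spread along its length, and 4 equal parts of the exon held 38, 37, 44 and 30 peaks. The remaining Ahnak peaks were 9 in the 3′UTR, 3 in the 5′UTR and 7 in the intron of 10230 nt that precedes the coding sequence. Replicate 1 had 46 reads per bin and replicate 2 had 24 at chr19:9078481-9078500, the highest shared peak in the 7 genes (35 ± 15.6 reads, SD, n = 2). The next, chr19:9079001-9079020, had 32 and 26 reads, as did chr19:9083721-9083740. The highest intron peak, chr19:9066281-9066300, had 12 and 8, and the highest UTR peak, at chr19:9092841-9092860 shortly after the coding sequence, had 12 and 13.

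The giant exon of Ahnak is repetitive, and many of its peaks lay in repeated sequence. Shifted against itself by 20 to 1200 nt, the exon was most like itself at 384 nt, where 46.7% of the bases were identical, against a median of 24.8% over all shifts. Of its 83 single-bin shared peaks inside the exon, 37 had a 20-nt sequence that occurs again within the exon, and in all 37 every copy in the genome lay in this exon. Of the 178 other positions of these sequences, 145 (81.5%) also held a shared peak; the same read may be listed at up to 10 such positions. In all, 82 of the 151 coding exon peaks of Ahnak had more than 1 copy in the genome, up to 18, and the other 69 had a single copy. Counting only single-copy peaks, the exon held 67; how much of its length is single-copy was not measured, so no density is given for these.

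The peaks that both technical replicates of ASC B2 listed in Ahnak show the repeat directly. There were 9 of them, all in the giant exon, and 8 held the same stretch of 14 bases, AAAATGCCCAAGTT, the longest that all but 1 of them share, which was looked for after these peaks were seen. They are printed, with the highest C2C12 peak of the exon first, to let the shared stretch be compared (mm9, plus strand, 5′ to 3′, the stretch in capitals; a wider ASC peak of 40 nt is left out).
chr19:9078481-9078500: AAAATGCCCAAGTTtggcat
chr19:9079981-9080000: atgAAAATGCCCAAGTTcag
chr19:9083341-9083360: AAAATGCCCAAGTTcagcat
chr19:9083721-9083740: aataAAAATGCCCAAGTTca
chr19:9084481-9084500: aaggtgAAAATGCCCAAGTT
chr19:9085841-9085860: tgAAAATGCCCAAGTTcagc
chr19:9086221-9086240: aaaataAAAATGCCCAAGTT
chr19:9089141-9089160: tgAAAATGCCCAAGTTcagc
The sequences at 9085841 and 9089141 are identical, and both had 9 and 7 reads in ASC B2 T1 and T2 and 19 and 18 in the C2C12 replicates, and the same reads may stand at both. At 9083721, whose sequence has 3 copies, ASC B2 T1 and T2 had 8 and 5 reads and C2C12 had 32 and 26. The exon holds this stretch 17 times, with a median spacing of 384 nt. A peak overlapped 13 of the 17 in ASC B2 T1 and 10 in B2 T2, the libraries from whose peaks the stretch was taken, so these numbers only describe that choice. The B1 libraries, which were not used for it, had 2 (T2) and 0 (T1). In C2C12, 13 of 17 carried a shared peak, but there the shared peaks covered 30.2% of the exon, and 13 of the 149 lay on the stretch.

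Plec encodes plectin, the plakin that anchors desmin and other intermediate filaments, and lies on the minus strand of chr15:76001404-76063004. Its last coding exon, exon 41 (chr15:76002603-76008815, 6213 nt), held 50 shared peaks, or 8.05 per kb (5.97 to 10.6), from 64 and 76 in the replicates. The preceding exon 40 (chr15:76008949-76012329, 3381 nt) held 13, or 3.85 per kb (2.05 to 6.58), from 26 and 20. The intervals of these densities overlap. In 4 equal parts from the 5′ end, exon 40 held 2, 7, 2 and 2 peaks and exon 41 held 12, 11, 11 and 16. Short exons of Plec held 29 peaks in 39 exons, or 5.55 per kb (3.72 to 7.98), and its 2 long exons 6.57 per kb (5.05 to 8.40), with overlapping intervals. Of the 39 short exons, 21 held at least 1 peak. The 3′UTR held 10 peaks, or 8.34 per kb. All but 5 of the 92 coding exon peaks of Plec had a sequence found only once in the genome, and 46 of the 50 in exon 41 were single-copy. The highest coding exon peaks of Plec lay in exon 41, with 17 and 12 reads per bin at chr15:76008401-76008420 and 15 and 8 at chr15:76005421-76005440. The highest intron peak, at chr15:76057281-76057300, had 9 and 8. The highest in an untranslated region, at chr15:76036601-76036620 in a 5′UTR, had 14 and 10.

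Dst encodes dystonin, which joins actin, microtubules and intermediate filaments in muscle, nerve and skin isoforms, and spans chr1:33965125-34365495 on the plus strand with 112 coding exons. The longest, exon 46 (chr1:34244817-34250108, 5292 nt), held 24 of the 53 coding exon peaks, or 4.54 per kb (2.91 to 6.75), with 30 and 34 peaks in the replicates. Its peaks lay mostly toward the 5′ end, with 9, 9, 3 and 3 in 4 equal parts. The exon of 1472 nt (exon 68, chr1:34284620-34286091) held 5, or 3.40 per kb, as 2, 3, 0 and 0 in 4 equal parts. Exons 41 and 42, of 2703 and 1899 nt, held 2 peaks each, or 0.740 (0.0896 to 2.67) and 1.05 (0.128 to 3.80) per kb, and the interval of exon 41 lies below that of exon 46. Long exons of Dst had 2.90 peaks per kb (1.999 to 4.08) and its 108 short exons 1.154 (0.705 to 1.78). All but 1 of its coding exon peaks had a single-copy sequence.

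The highest Dst peaks were single-copy and are shown as examples of well-supported sites in a gene in which 71 of 73 shared peaks have a single-copy sequence (mm9, plus strand, 5′ to 3′). None of the 3 holds GGAC, the core of a common m6A context, within the peak or 20 nt on either side, so no base is in capitals.
exon 46, chr1:34245061-34245080: agctcatttctactgcatcg
exon 42, chr1:34239341-34239360: tgatagggttacagccctca
intron, chr1:34293901-34293920: ttctccaaagaaccatgctg
The first had 24 and 28 reads per bin in the C2C12 replicates, the second 23 and 22 and the third 17 and 19, and no ASC library listed a peak at any of them. The highest 3′UTR peak, at chr1:34365001-34365020, had 8 and 7. Of the 18 Dst intron peaks, 9 lay in an intron of 74326 nt, where they were scattered over 42540 nt, and 3 lay within 780 nt of each other in the intron of 13372 nt that follows exon 68. An antisense lincRNA gene, Gm16750, overlaps 4 Dst peaks, which were counted for Dst because their reads lie on its strand.

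**Figure D3:**
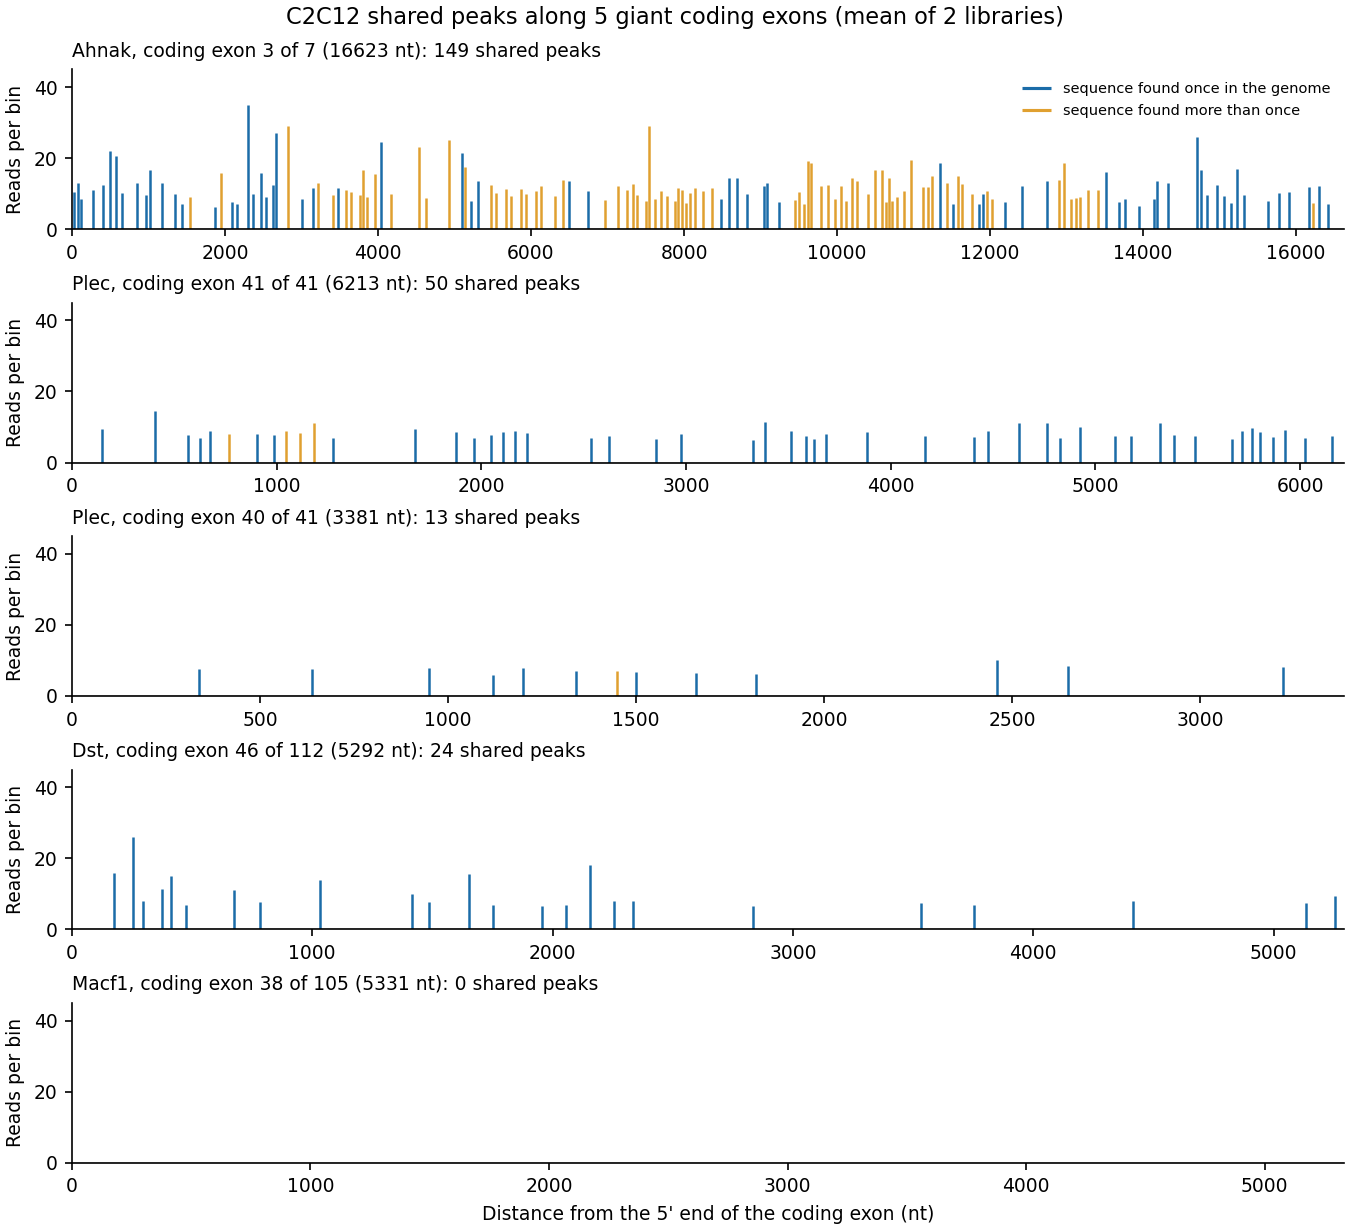
C2C12 shared peaks along 5 coding exons longer than 3000 nt, each line at the distance from the 5′ end of the exon in nt and as high as the mean reads per bin of the 2 replicates (blue for a 20-nt sequence found once in the genome, orange for more). Ahnak is filled along its whole length with orange lines in the middle, Plec exon 41 is evenly filled, Dst exon 46 is denser and higher toward its 5′ end, and Macf1 exon 38 is empty.

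Macf1, the microtubule-actin crosslinking factor and closest relative of Dst, lies on the minus strand of chr4:123026876-123361603, and its long exons differed from those of Dst. Exon 38 of 5331 nt (chr4:123148250-123153580) is close in length to Dst exon 46 and held 0 shared peaks, which allows up to 0.692 per kb and lies below the interval of Dst exon 46. Single replicates listed 2 and 4 peaks in it. Exon 60 (chr4:123109241-123110712) has the same length as Dst exon 68, 1472 nt, and also held 0 shared peaks, from 1 and 3 in the replicates; here the upper limit of 2.51 per kb overlaps the Dst interval of 1.10 to 7.93. The 7 coding exon peaks of Macf1 were in 7 different short exons, at 0.416 per kb. The highest, chr4:123055921-123055940, had 12 and 7 reads per bin. Next, with 8 and 8 reads each, were chr4:123038221-123038240 and chr4:123049141-123049160. In the 3′UTR, chr4:123027161-123027180 had 8 and 9. Whether fewer peaks than in Dst came from a lower RNA level was not tested.

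The 8 intron peaks of Macf1 all lay in the same intron, the one that follows the 1472-nt exon, as did the cluster of 3 in Dst. This intron (chr4:123084759-123109240) is 24482 nt long in the annotation and ends at a 78-nt exon of a transcript without coding sequence. Replicates 1 and 2 listed 15 and 16 peaks in it, and the 8 shared peaks stood within 4300 nt of each other, between 22 and 4302 nt from its 3′ end. All 8 had single-copy sequences. On the strand of the RNA, a stretch of 3351 nt without a stop codon (chr4:123084606-123087956) runs through the 3′ end of the intron and holds 7 of the 8 peaks, and no other stretch of at least 1000 nt exists in that intron. The 1472-nt exons of Macf1 and Dst were matched by length, and their sequences were 33.4% identical. The coding exons next to them are also equal in length in both genes, with 496 nt before and 162 nt after. The 1472-nt exons thus have the same place in the exon order of the 2 genes. In the Dst intron that follows its 1472-nt exon, the only stop-free stretch of at least 1000 nt, of 1677 nt, holds 1 of the 3 peaks. The longest one in the 74326-nt Dst intron, of 3546 nt, holds 0 of 9. These stretches were looked for after the clusters were seen, and whether any of them is exonic in these cells was not tested. The highest Macf1 intron peak, printed as a site inside the stretch, had 11 and 10 reads per bin (mm9, minus strand, 5′ to 3′).
chr4:123085201-123085220: ccagtggagactgttacagt

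**Figure D4:**
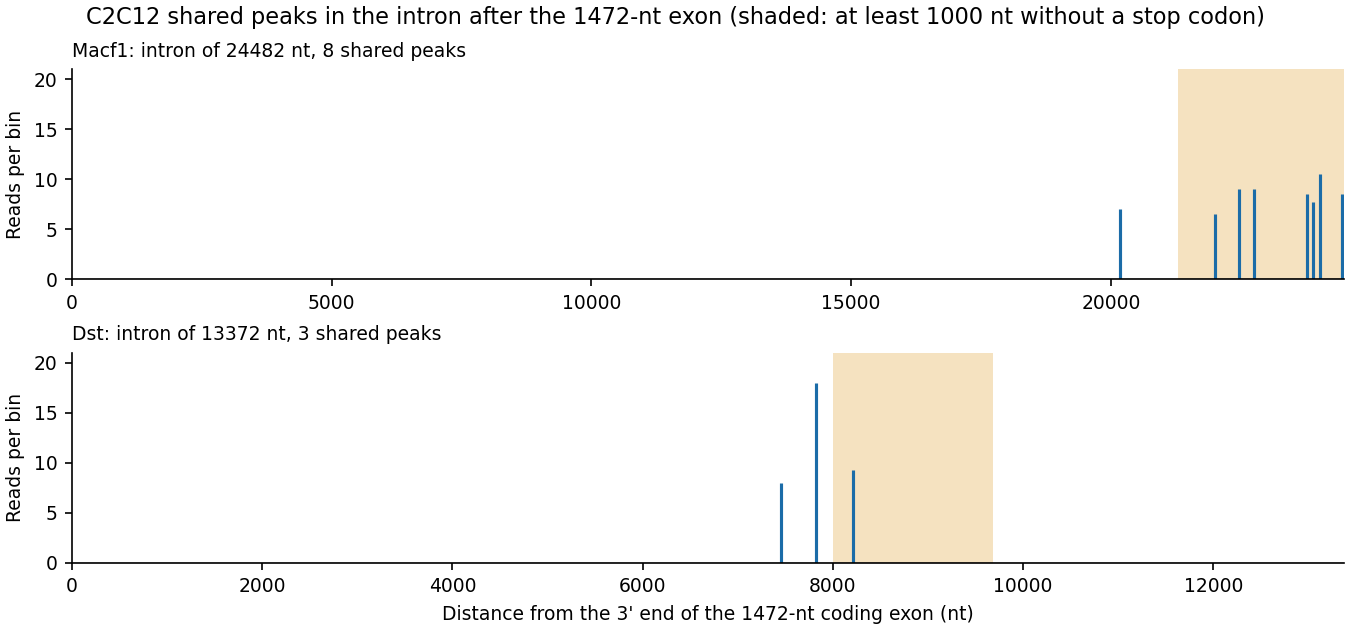
C2C12 shared peaks (lines, mean reads per bin of 2 replicates) in the intron that follows the 1472-nt coding exon of Macf1 (top) and Dst (bottom), by distance in nt from that exon, with stretches of at least 1000 nt without a stop codon shaded. The 8 Macf1 peaks stand in the last 4302 nt, 7 of them in the shaded stretch, and the 3 Dst peaks stand together at about the middle of the intron.

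Utrn, which encodes utrophin and takes the place of dystrophin in immature muscle, lies on the minus strand of chr10:12101986-12589163 and has no coding exon longer than 269 nt. It held 1 shared peak in a coding exon, at chr10:12404221-12404240 with 9 and 12 reads per bin, against 5 and 4 coding exon peaks in the single replicates. Its density of 0.0950 per kb of coding exon (0.00240 to 0.529) was the lowest of the 5 genes with peaks. The highest of its 6 intron peaks, chr10:12513741-12513760 with 15 and 9.5 reads, lies on an annotated U6 snRNA gene inside the intron, and its 20-nt sequence occurs 298 times in the genome, so those reads cannot be assigned to the Utrn RNA. Altogether 3 of the 6 intron peaks had more than 1 copy.

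Syne1 and Syne2 encode the giant nesprins, whose spectrin-like repeats span from the outer nuclear membrane to actin. Syne1 (chr10:4795849-5326338) has 26602 nt of coding exon in 147 exons and Syne2 (chr12:76919121-77211913) has 20786 nt in 117, so their coding lengths are close to those of Dst and Macf1. Neither held a shared peak, and a count of 0 allows up to 0.151 per kb in the short exons of Syne1 and 0.197 in those of Syne2, below the interval of Dst. The long exons, of 2161 nt in Syne1 and 2104 nt in Syne2, held 0 peaks in each of the 6 libraries. Whether the RNA of either gene was present in these cells was not tested.

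Over the 7 genes, the 11 coding exons of at least 1000 nt held 245 shared peaks and the 594 shorter ones held 59. This is 5.04 per kb (4.42 to 5.71) against 0.630 (0.480 to 0.813), a ratio of 7.99. The replicates gave 6.60 and 7.07 per kb for long and 1.25 and 1.07 for short exons. At least 1 peak was found in 7 of the 11 long exons, against 70.9% of the long exons of all genes with a shared peak, and in 50 of the 594 short ones (8.42%), against 6.72%. That background covers genes with at least 1 shared peak, which Syne1 and Syne2 are not. In the 5 genes with a shared peak, 7 of 9 long exons (77.8%) and 50 of 332 short ones (15.1%) held a peak, at 5.52 (4.85 to 6.26) and 1.17 (0.889 to 1.51) per kb, a ratio of 4.73. Per length, the other genes with a shared peak had 1.28 peaks per kb of long exon and 0.611 per kb of short exon, a ratio of 2.10. Within a gene the ratio was 2.72 in Ahnak, 2.52 in Dst and 1.18 in Plec, and it was 0 in Macf1, whose long exons held no shared peak. The Ahnak ratio rests on 2 peaks in its short exons (3.29 per kb, 0.399 to 11.9, an interval that spans that of the long exon), and 82 of its 151 coding exon peaks are not single-copy. The pooled ratio was 4.89 without Ahnak, whose coding sequence is nearly all in a long exon. Long exons were the denser kind in 157 of 183 genes (85.8%) with at least 5 coding exon peaks and both kinds of exon. Peaks with at least 10 reads per bin in both replicates gave 1.48 and 0.0427 per kb, and single-copy peaks, over the full exon lengths, 3.25 and 0.619.

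**Figure D5:**
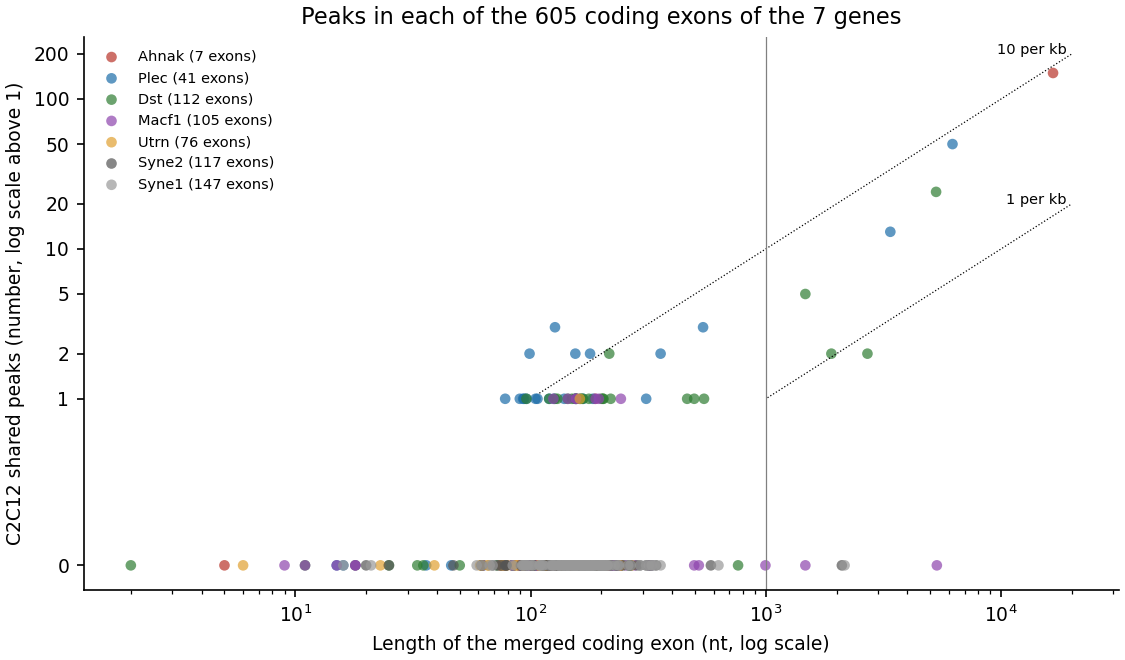
Number of C2C12 shared peaks (vertical axis, log scale above 1) against exon length in nt (log scale) for each of the 605 coding exons, coloured by gene, with dotted guides at 1 and 10 peaks per kb and a line at 1000 nt. The exons of Ahnak, Plec and Dst beyond 1000 nt lie near or between the guides, and those of Macf1, Syne1 and Syne2 lie at 0.

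GGAC was searched on the strand of the RNA in each single-bin coding exon peak widened by 20 nt on both sides. It was present in 45 of 197 windows (22.8%, 17.2 to 29.3%), against 26.3% (24.4 to 28.3%) of 2086 tiles of 60 nt laid over the coding exons of the same genes and 22.9% of 7082 such windows of all genes. The mix of genes differs between windows and tiles. Ahnak gave 85 of the 197 windows but 285 of the 2086 tiles, and Syne1 and Syne2 gave 370 and 294 tiles and no window. The pooled shares are therefore not matched by gene, and shares within a gene are the closer comparison. In Ahnak GGAC was present in 20 of 85 windows (23.5%, 15.0 to 34.0%) and in 36.5% of the tiles (30.9 to 42.4%), in Plec in 16 of 55 (29.1%) and 29.5%, and in Dst in 8 of 50 (16%) and 21.1%. With a p-value of at most 0.0001 the share was 16% (9.43 to 24.7%), an interval that overlaps that of the tiles. At 0.00001 it was 6% (1.25 to 16.5%), and with at least 10 reads per bin in both replicates 9.09% (3.02 to 19.95%). These last intervals lie below that of the pooled tiles, which are not matched by gene to these windows, and they cover counting error only. A mean of at least 10 reads is a looser limit than 10 in both replicates. By that mean, Ahnak has most of such peaks in long exons (97, beside 11 in Dst and 8 in Plec). Many of these have more than 1 copy in the genome, so the windows are not independent.

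Among the 256 words of 4 bases, TGCC had the largest difference between the pooled windows and tiles. TGCC stood in 50.8% (43.6 to 57.9%) of the windows and 25.1% (23.2 to 27.0%) of the tiles, and in 47.8% of the windows of all genes. As for GGAC, these pooled shares are not matched by gene, so their difference also holds the unlike mix of genes. TGCC differed between genes: 74.1% of windows against 53.7% of tiles in Ahnak, where the printed repeat contains it, 49.1% against 30.8% in Plec, and 16% against 15.5% in Dst. It was chosen as the largest of 256 differences and is a description only. A match is a string of letters and not a mapped m6A site.

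In ASC-48 hr, Plec and Ahnak had peaks mostly in B2. In the order B1 T1, B1 T2 and then the B2 pair, Plec had 0, 0, 11 and 43 peaks, and Ahnak had 0, 7, 15 and 26. The technical replicates of B2 overlapped at 9 Ahnak and 4 Plec coding exon sites, whereas those of B1 overlapped at 0 in both genes. Peaks in Dst were 4, 4, 3 and 5. Macf1 had 0, 1, 2 and 9 and Utrn 1, 1, 1 and 7, with the last value in each from B2 T2, the library that lists peaks of 4 reads. In long exons there were 0, 7, 23 and 58 peaks, and in short exons 0, 1, 3 and 22.

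Most Ahnak peaks of the ASC libraries overlapped C2C12 shared peaks. This was so for all 7 peaks of B1 T2, 12 of 15 in B2 T1 and 21 of 26 in B2 T2 (80.8%). The shared peaks cover 30.2% of the giant exon. Of the B2 peaks, 13 of 15 (T1) and 10 of 26 (T2) lay on the repeated 14-base stretch, 13 of whose 17 copies carry a C2C12 shared peak, so that these are not independent sites. In Plec the numbers were 6 of 11 in B2 T1 and 11 of 43 in B2 T2 (25.6%, 13.5 to 41.2%). Counting peaks of any C2C12 replicate, they were 9 of 11 and 23 of 43, beside 14 of 15 and 24 of 26 in Ahnak. Shared peaks cover 28.0% of Plec exon 41 and 9.46% of Plec exon 40. Exon 40 took 6 and 15 of the B2 peaks and exon 41 took 1 and 16, and in C2C12 exon 40 had 26 and 20 and exon 41 had 64 and 76. At chr15:76011201-76011220 in exon 40, ASC B2 T1 and T2 had 6 and 10 reads and both C2C12 replicates had 6.

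Just 2 RNA-strand peaks were shared by both biological replicates of ASC, and each lies on a run of a single base in an intron. Of the 7 genes 2 thus held an ASC shared peak, against 2.47% of all protein-coding genes. They are printed to show the runs (mm9, strand of the gene, 5′ to 3′, the run in capitals).
Dst, chr1:34043061-34043080: ctcctccctCCCCCCCCCCC
Utrn, chr10:12254381-12254400: TTTTTTTTTTaaaacaatgc
The Dst peak had 9, 8, 9 and 8 reads per bin in the 4 ASC libraries and 9 in both C2C12 replicates, and its sequence occurs 26 times in the genome. The Utrn peak had 8, 8, 7 and 7 in ASC and 7 and 8 in C2C12. Without peaks near a base run, or with single-copy sequences only, no ASC shared peak was left in the 7 genes. Without ASC B1 T1 the number was 4, with the 2 Ahnak peaks at 9085841 and 9089141 added, whose identical sequence has 11 copies.

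In C2C12 nearly all peaks of the 7 genes were RNA-strand peaks, and in ASC B1 fewer were. In C2C12, 374 of 378 shared peaks (98.9%, 97.3 to 99.7%) were, and the 4 others were 2 each in Dst and Utrn. In ASC B1 it was 6 of 12 for T1 and 14 of 22 for T2, and in B2 it was 32 of 38 (84.2%) and 94 of 108 (87.0%). Of the 6 ASC shared peaks on either strand, 2 were RNA-strand peaks and 4 were not, 2 of them in Utrn and 1 each in Dst and Syne1.

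Other genes of the same machinery, from lists drawn up for this purpose, gave a mixed picture in C2C12, to be read beside the 21.9% of all protein-coding genes that held a shared peak. No annotated member of the other plakins (Dsp, Ppl and Evpl) held a shared peak, although their longest coding exons are 2661 to 3444 nt. Among spectrins and actinins, 4 of 11 did, led by Sptbn1 (21, annotated as Spnb2) and Sptan1 (13, annotated as Spna2), the non-erythroid spectrins, with Actn1 at 11 and Actn4 at 6. In the dystrophin complex 5 of 14 genes did, with 7 in Dag1, the dystroglycan gene, and 2 in Dmd itself. At the nuclear envelope, partners of the nesprins held peaks although the nesprins did not: 4 of 5 annotated genes, with 21 in Lmna, the gene of lamins A and C, and 6 in Sun2. Of the other partners 6 of 10 did, among them Anxa2 (13), Vim (23) and Des (10). Ahnak2, the second AHNAK gene, held 55 shared peaks, all in coding exons, at 4.13 per kb. Its longest coding exon is 12687 nt long and contains the 14-base stretch of Ahnak 1 time. Ahnak2 had 1, 15, 32 and 78 peaks in the ASC libraries and 103 and 110 in C2C12. Copies in the genome were counted only for peaks inside the 7 genes. How many Ahnak2 peaks lie in repeated sequence is therefore not known, and its counts and density carry this limit.

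As a check of the cells, 6 of 9 myogenic marker genes held C2C12 shared peaks, 29 in all, with 11 in Itga7 and 10 in Des, against 21.9% of all protein-coding genes, and 6 of 9 had a peak in at least 1 ASC library, against 25.1%. Of the defining genes, Pax7 had 1, 1, 2 and 10 peaks in the 4 ASC libraries and 0 and 1 in C2C12, and Myod1 had 0, 2, 1 and 6 in ASC and 5 and 3 in C2C12, with 0 shared peaks for both genes in either cell type. Of the other markers, 0 of 2 blood genes, 1 of 3 endothelial and 2 of 3 fibro-adipogenic genes held C2C12 shared peaks, with 1 and 3 peaks in all. In ASC, a peak in at least 1 library was found for 0 of 2 blood, 1 of 3 endothelial and 0 of 3 fibro-adipogenic genes. The endothelial gene, Pecam1, had 1 peak in each of the 6 libraries and is the only marker with an ASC shared peak, whereas 0 of the 9 myogenic genes had one; its C2C12 shared peak lies in an intron.

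The genes most like each member were found by the shares of their shared peaks over coding exon, 3′UTR, 5′UTR, other exon and intron, by Euclidean distance among 466 other genes with at least 10 shared peaks. Nearest to Ahnak were Pkd1 (39 peaks, distance 0.0210) and Bcl9l (20, 0.0232), and nearest to Plec were Fat1 (21, 0.0142) and Fn1 (94, 0.0401). Dst was nearest to 2810474O19Rik and Atp5b (12 peaks each, 0.0366), and Macf1 to Igfbp2 (15, 0.0166) and Asxl1 (16, 0.0422). Utrn, Syne1 and Syne2 had too few peaks for this comparison.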

How the data were processed

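YTHDC1 LACE-seq peak lists of 4 ASC-48 hr and 2 C2C12 libraries were used. The authors trimmed reads with cutadapt 1.15, set aside pre-rRNA reads, aligned the others to mm9 (Bowtie 1.2.3, up to 10 positions, 2 mismatches) and called peaks per library with Piranha (20-nt bins, p threshold 0.001); these peak settings are named for ASC, and removal of duplicate reads is not given in the sources used here. The deposited signal is the number of reads per bin, averaged over bins where a peak is wider and not normalized, and the deposited p-value is Piranha's own for the library, not adjusted. Depth is unknown because only peaks are listed.

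Peaks were assigned to GENCODE vM1 genes on NCBIM37, which is mm9, by any overlap, in the order coding exon, 3′UTR, 5′UTR, other exon, intron, over the merged exons of all transcripts. A C2C12 shared peak is a replicate 1 peak that overlaps (1 nt or more, same strand) a replicate 2 peak, and an ASC shared peak is shared by T1 and T2 and then by B1 and B2. Copies are exact 20-nt matches on either strand of the genome, and a base run is at least 10 of a base within 20 nt. Intervals are 95% Poisson for counts and Clopper-Pearson for shares, and cover counting error only. No test was made beyond a screen of the ASC counts with Dixon's criterion, since the genes, lists and the question were chosen with earlier results of these data known. Named peaks are the 2 coding exon peaks, the intron peak and the UTR peak with most reads in each gene, and all ASC shared peaks. All coding exons of at least 1000 nt were also named. From the lists, genes with at least 5 shared peaks were named. Dmd, Pax7, Myod1, Pecam1 and the plakins Dsp, Ppl and Evpl were named with fewer. The repeat stretch, stop-free stretches and 4-base words were chosen after the data were seen. Eppk1 and Syne3 had no match by symbol. A GRCm38 table of RefSeq genes gave synonyms only. Python 3.11.15, numpy 2.4.6, pandas 2.3.3, scipy 1.17.1, pysam 0.24.0, samtools 1.23.1 and matplotlib 3.10.9 were used. Peak sharing and parts were tested on 485 simulated peaks in the 7 genes, and intervals on simulated counts. In all, 25 of 25 checks gave the known answer. The simulated peaks were placed with the same gene models, so they could not test how the annotation was read.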

Additional observations from a re-analysis of the deposited data

Results flagged for a closer look

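Counts of the 4 ASC libraries were screened with Dixon's criterion. Its rate of about 1 in 20 groups by chance is for independent samples and does not hold here, because the 4 libraries are 2 biological replicates with 2 technical replicates each. Utrn had 7 RNA-strand peaks in ASC B2 T2 and 1 in each of the other 3 libraries. Over the 7 genes, intron peaks numbered 12 in ASC B2 T2 and 6, 6 and 5 in the other 3 libraries. In both cases the high library is the one that listed peaks of 4 reads, and the part of that lower limit in the counts was not tested.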

How the results depend on the processing

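Of 83 recomputed values under 17 alternatives, 51 stayed within the main interval (or within 1.5 times for counts) and 32 did not. Of the 51, 13 could not have changed, because bins are aligned (an overlap of at least 10 nt) or C2C12 lists start at 6 reads (at least 6 reads per bin), which leaves 38 of 70. The main values are 374 C2C12 and 2 ASC shared peaks, 81.3% in coding exons, 5.04 and 0.630 per kb of long and short exon, 22.8% with GGAC and 98.9% as RNA-strand peaks. With a p-value of at most 0.0001 there were 147 C2C12 shared peaks, 2.06 per kb in long and 0.224 in short exons and 16% with GGAC. At 0.00001 these were 61, 1.07, 0.0320 and 6%, with 90.2% in coding exons and 100% as RNA-strand peaks. With at least 10 reads per bin there were 82 C2C12 and 0 ASC shared peaks, 92.7% in coding exons, 1.48 and 0.0427 per kb, 9.09% with GGAC and 100% as RNA-strand peaks. Single-copy sequences left 76.6% in coding exons, 3.25 per kb in long exons (over their full length) and 0 ASC shared peaks, base runs removed left 0, and the longest transcript alone left 1. Pooling only the 5 genes with a shared peak, an alternative chosen after seeing the data, gave 1.17 per kb in short exons and 5.52 in long ones. Leaving out a C2C12 replicate gave 575 to 593 peaks, 74.9 to 76.2% in coding exons, 6.60 to 7.07 and 1.07 to 1.25 per kb, 23.3 to 26.8% with GGAC and 98.6 to 98.8% as RNA-strand peaks. Leaving out an ASC library gave 2 to 4. Pooled over the genes, long exons were denser than short ones in 11 of 11 alternatives that could change densities, by 4.73 to 34.6 times. No alternative left out Ahnak, which holds many of the long exon peaks. Within single genes the main ratios were lower, at 2.72 in Ahnak, 2.52 in Dst, 1.18 in Plec and 0 in Macf1. The pooled range therefore does not describe exons within a gene. No paired analysis was made, since there was no test between groups, and replicate numbers 1 and 2 of ASC and C2C12 name different cells. The unknown depth, the lack of an RNA level and of an input library limit every count, and a gene with few peaks may have little RNA.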
